A study of Rattus norvegicus with 4 samples.

Results

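The 10 K2P genes (Kcnk1, Kcnk2, Kcnk3, Kcnk4, Kcnk5, Kcnk6, Kcnk9, Kcnk10, Kcnk12 and Kcnk13) described here were taken by gene symbol from the 32883 genes of the deposited table. K2P channels are potassium channels whose subunits each carry a pair of pore domains. The table holds 14 Kcnk genes in all, and the other 4 are Kcnk7, Kcnk15, Kcnk16 and Kcnk18. RNA was sequenced from whole carotid bodies (CBs), the chemoreceptor organs at the fork of the carotid artery, of Sprague-Dawley rats for which the labels name no treatment. The neonatal group is 5 days old and the adult group 21 days old, with 2 libraries per age and 4 in all. Each neonatal library was pooled from 6 pups and each adult library from 3 rats by the design text, while the methods of the paper give other pool sizes and another number of replicates. Adults were litter members left to grow on, and both sexes were included, so a library stands for a mixed pool and not for 1 animal.

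K2P channels are open at rest and set the resting membrane potential of many cells, because potassium leaks out through them without a voltage step. In glomus cells, the oxygen-sensing cells of the CB, a background potassium current is carried by TASK-1 (Kcnk3), TASK-3 (Kcnk9) and channels built from both. That current is reduced in hypoxia and by acid, which depolarizes the cell, lets calcium in and releases transmitter onto the sensory nerve. The wider family holds the mechanically and lipid-gated TREK and TRAAK channels (Kcnk2, Kcnk10 and Kcnk4), the alkaline-activated TASK-2 (Kcnk5), the weakly conducting TWIK channels (Kcnk1 and Kcnk6) and the halothane-inhibited THIK channels (Kcnk13 and Kcnk12).

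Library totals ran from 36286191 to 39476110 estimated counts, so 3 counts, taken as the floor of detection, equal 0.0760 to 0.0827 CPM (counts scaled to a common library total). That floor covers counting error only. Levels below are CPM of the library total, and no gene length was applied, so levels are compared between ages and not between genes. Tests were edgeR's quasi-likelihood test, neonates over adults, after TMM normalization, with p-values adjusted by Benjamini-Hochberg over the 13838 genes tested, and log2 fold changes, given with their standard error (SE), are positive where neonates had more. Counts of the 13 proteins encoded in mitochondrial DNA made up 15.6% to 18.7% of the total in neonates and 9.06% to 9.08% in adults. TMM factors were 0.902 and 0.935 in neonates and 1.08 and 1.10 in adults, and scaling to library size alone moved the median over all genes, as a log2 fold change, from -0.0029 to -0.25. Pth, the parathyroid hormone gene, stood at 1595 CPM in the first neonatal library, at 194 CPM in the second and at 0 counts in adults. The labels call the libraries of an age biological replicates but do not say whether the pools came from separate litters, so p-values measure the spread between these libraries, which may be technical.

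The TASK-3 gene was about 10.3-fold higher in adults, while the TASK-1 gene differed by 1.22-fold in the other direction, a call that depended on the scaling. Kcnk9 (ENSRNOG00000009265) had 2.79 and 2.31 CPM in the neonatal libraries and 33.8 and 28.7 CPM in the adult libraries, from 110, 89, 1276 and 1043 counts. Both adult libraries lay far above both neonatal ones, with means of 2.55 ± 0.336 CPM against 31.3 ± 3.56 CPM (SD, n = 2 per age). The log2 fold change was -3.37 (SE 0.17, adjusted p = 2.4e-06 by edgeR's quasi-likelihood test), or 10.3-fold lower in neonates. Of all genes tested, 75 (0.542%) had a lower log2 fold change than Kcnk9. In both neonatal libraries Kcnk9 was above the floor and above 1 CPM, so it was present at both ages. In whole tissue, fewer cells of a type and less RNA per cell cannot be told apart, and this holds for each gene below.

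Kcnk3 (ENSRNOG00000009790), the acid-sensitive background channel TASK-1, had 196 and 212 CPM in neonates and 213 and 182 CPM in adults. The ages overlapped on this scale, at 204 ± 11.6 CPM and 197 ± 21.9 CPM (SD, n = 2 per age). After TMM scaling the neonatal libraries (217 and 227 CPM) both lay above the adult libraries (197 and 166 CPM). The log2 fold change was then 0.29 (SE 0.095, adjusted p = 0.024 by edgeR's quasi-likelihood test), and neonates were 1.22-fold higher. Scaled to library size alone it was 0.048, with an adjusted p of 0.69 in the same edgeR test. The call was also lost without adult replicate 2 (log2 fold change 0.17, adjusted p = 0.16 in edgeR) and without neonate replicate 2 (0.27, adjusted p = 0.076 in edgeR). Reads of Kcnk3 ran from 6598 to 8171 a library.

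**Figure D1:**
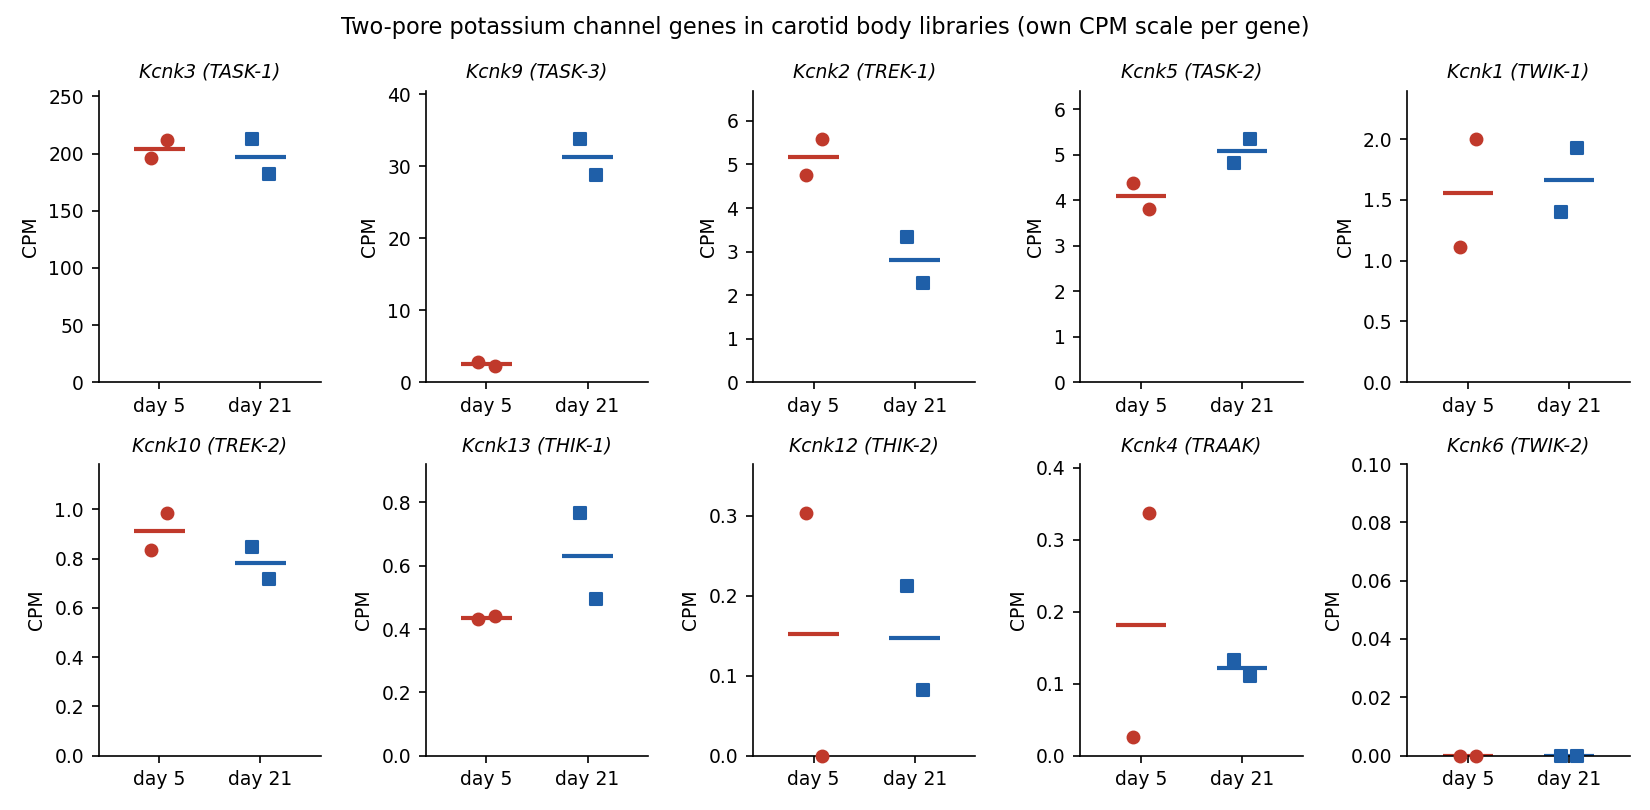
CPM (y axis, each gene on its own scale from 0) of the 10 K2P genes in the neonatal (day 5, red circles) and adult (day 21, blue squares) libraries, with a bar at the mean of each age. Kcnk9 lies at 2.31 and 2.79 CPM on day 5 and at 28.7 and 33.8 CPM on day 21, Kcnk2 is lower on day 21, the points of Kcnk3 overlap, and Kcnk6 is at 0 in all 4 libraries.

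The balance of the TASK genes was followed inside each library, as Kcnk3 counts over Kcnk9 counts. This ratio is free of library scaling, and its change between ages is free of gene length. It was 70.3 and 91.8 in the neonatal libraries and 6.30 and 6.33 in the adult libraries. On the log2 scale the means were 6.33 ± 0.273 in neonates and 2.66 ± 0.00443 in adults (SD, n = 2 per age), a difference of 3.67, or 12.7-fold. The neonatal values lay above the adult values with no overlap, and the exact two-sided permutation p was 0.333, the smallest that 2 libraries against 2 can give. Kcnk9 made up 1.40% of the Kcnk3 and Kcnk9 counts in neonate replicate 1 (exact 95% binomial interval 1.15% to 1.69%) and 1.08% in neonate replicate 2 (0.866% to 1.32%). In the adult libraries it made up 13.7% in both (13.0% to 14.4% and 12.9% to 14.4%). These are shares of reads, not of channel subunits.

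**Figure D2:**
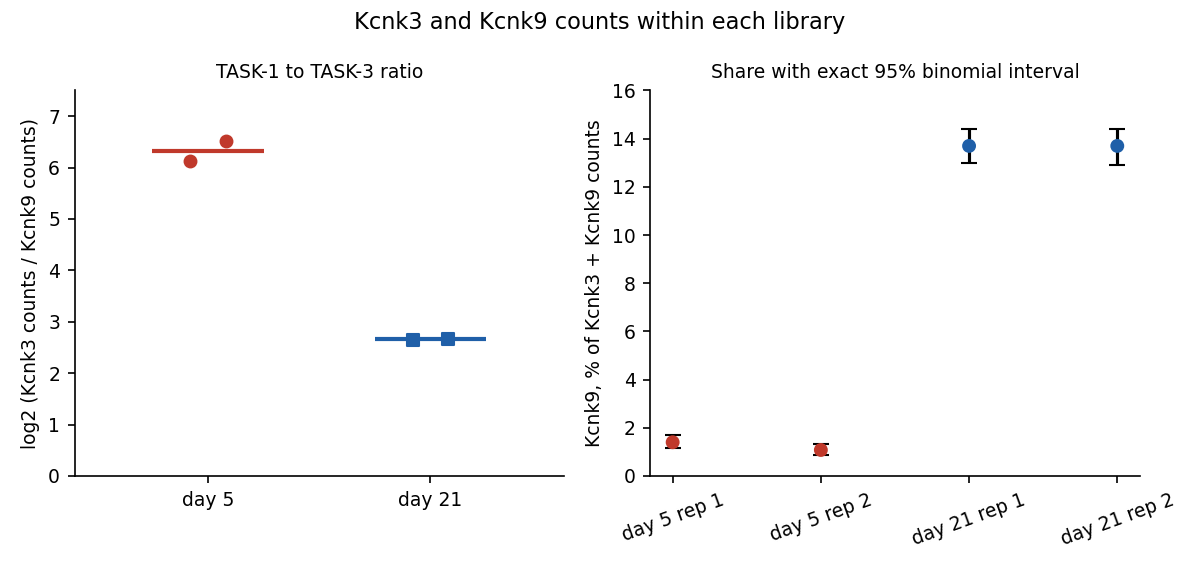
Left, log2 of Kcnk3 counts over Kcnk9 counts (y axis) in each library by age, with a bar at the mean, at 6.13 and 6.52 on day 5 and at 2.66 and 2.66 on day 21. Right, Kcnk9 as a percent of the summed Kcnk3 and Kcnk9 counts per library with exact 95% binomial intervals, between 1.08% and 1.40% on day 5 and at 13.7% on day 21.

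Markers of glomus cells were set beside the TASK genes. All 17 glomus cell markers listed were tested and none was at 0. By edgeR's quasi-likelihood test 4 of them were higher and 7 lower in neonates, beside 31.2% and 31.1% of all genes tested, and the median of the 17 log2 fold changes was -0.091. Scaled to library size alone, 2 were higher and 8 lower, with the median at -0.33. Gata3, a transcription factor of sympathoadrenal cells, had the highest log2 fold change of the list at 1.51, from 11.5 and 5.35 CPM in neonates and 3.92 and 3.14 CPM in adults. Chga, the granule protein chromogranin A, had 1552 and 740 CPM in neonates and 848 and 723 CPM in adults. Both genes were higher in neonate replicate 1 than in neonate replicate 2, as was Pth (1595 and 194 CPM), and the part of parathyroid tissue in their values was not tested. Th, tyrosine hydroxylase of dopamine synthesis, had 917 and 781 CPM in neonates and 1517 and 1242 CPM in adults (log2 fold change -0.45, SE 0.13, adjusted p = 0.016 by edgeR's test). The list's summed level was 7809 to 8631 CPM in neonates and 9762 to 12120 CPM in adults. The gene of the list with the highest CPM, which also depends on gene length, was Epas1 (HIF-2α), which is also high in endothelium, at 1664 ± 136 CPM in neonates and 3525 ± 767 CPM in adults. The gap between ages in the summed level rests largely on Epas1. Without Epas1 the sums of the ages overlap, through neonate replicate 1, where Chga stood at 1552 CPM. With both Epas1 and Chga left out, the neonatal sums again lie below the adult sums with no overlap.

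**Figure D3:**
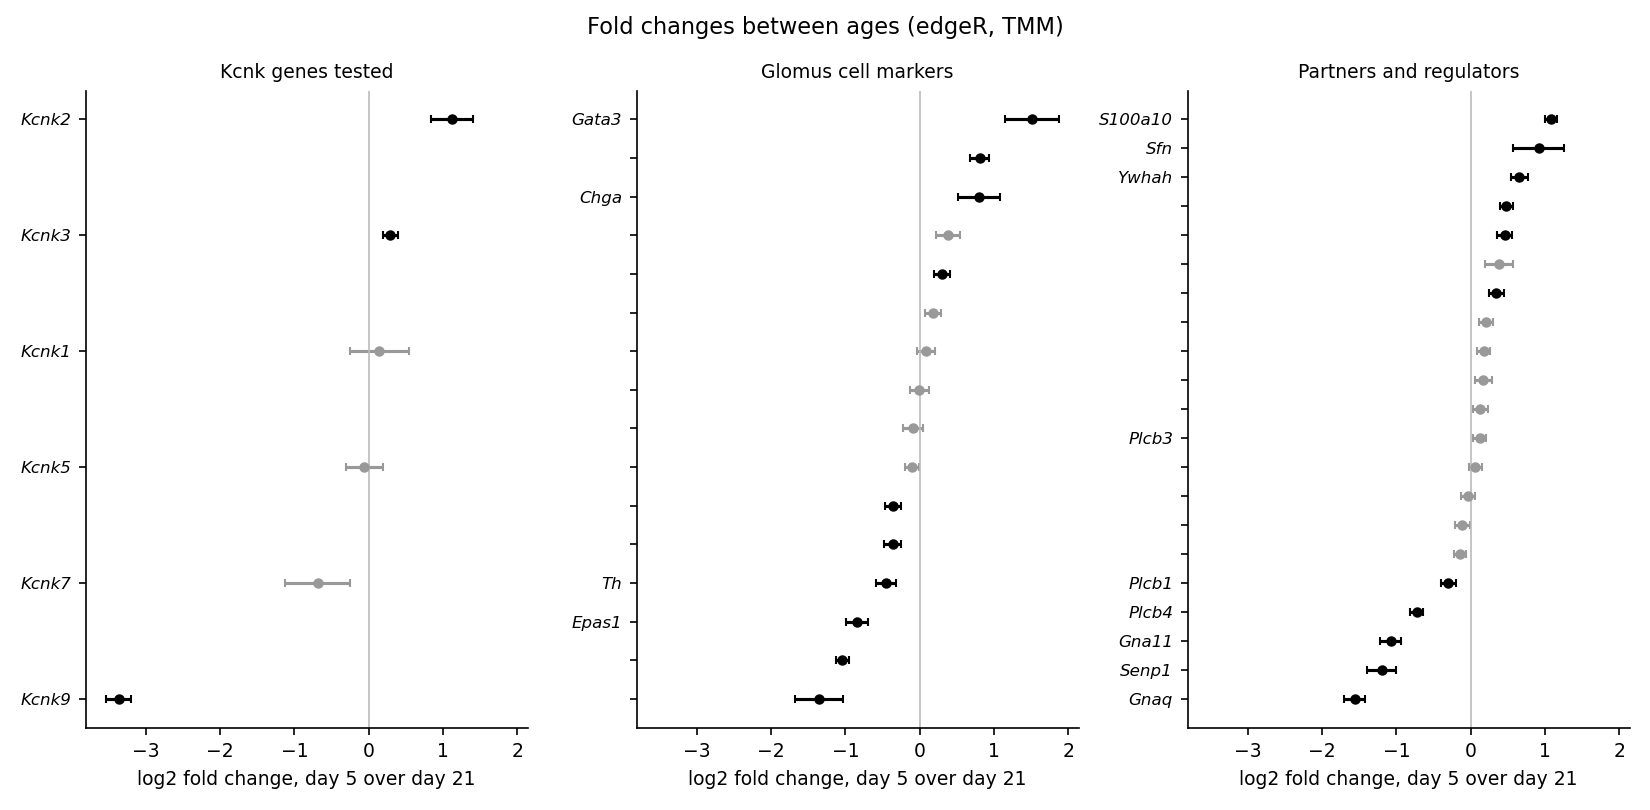
Log2 fold change of day 5 over day 21 with its standard error (x axis) for the 6 Kcnk genes tested, 16 glomus cell markers and 21 partners and regulators, black where the adjusted p of edgeR's test was under 0.05 and grey otherwise. Kcnk9, at -3.37, lies to the left of every glomus cell marker and every partner drawn, where names are given for genes described in the text.

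Of the mechanically gated branch, Kcnk2 was lower in adults, while Kcnk10 and Kcnk4 stayed below the filter of 1 CPM in 2 libraries. Kcnk2 (ENSRNOG00000002653) encodes TREK-1, which opens with membrane stretch, arachidonic acid and volatile anaesthetics. It had 4.76 and 5.58 CPM in neonates and 3.34 and 2.29 CPM in adults, from 188, 215, 126 and 83 counts. The ages did not overlap, and the log2 fold change was 1.12 (SE 0.29, adjusted p = 0.0080 by edgeR's quasi-likelihood test), or 2.17-fold higher in neonates. Without adult replicate 2, the library with the lowest Kcnk2 level, it was 0.87 with an adjusted p of 0.080 in edgeR. Markers of sympathetic neurons moved the same way. By edgeR's test 9 of 10 were higher in neonates and none lower, beside 31.2% and 31.1% of all genes tested. Their summed level was 1879 to 2199 CPM in neonates and 1176 to 1445 CPM in adults. Some of that list, such as Dbh and Slc18a2, are catecholamine genes that glomus cells can also express, and the part of these neurons in the Kcnk2 result was not tested.

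Kcnk10 (TREK-2) had 33 and 38 counts in the neonatal libraries and 32 and 26 in the adult libraries, or 0.836 and 0.987 CPM against 0.847 and 0.717 CPM. Its ages overlapped, and it lay well above the floor of 3 counts. Kcnk4 (TRAAK, a relative of the TREK channels) had 1 and 13 counts in neonates and 5 and 4 in adults. In the fit without a filter, which held 19418 genes, the log2 fold changes were 0.44 (SE 0.50, adjusted p = 0.52 in edgeR) for Kcnk10 and 0.76 (SE 1.37, adjusted p = 0.68 in edgeR) for Kcnk4. Neither gene was called, and with these standard errors a 2-fold change could have been missed for either, and a larger one for Kcnk4.

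RefSeq promoter windows of the assembly GRCr8 were at hand for 4 of the 10 genes (Kcnk2, Kcnk4, Kcnk5 and Kcnk13), and the reads were mapped to another build, Rnor_6.0. Kcnk2 has a pair of start sites there, which the gene-level counts sum into 1 value. The 250 bases before each are shown because Kcnk2 is the gene with a change between ages among those 4, beside the window of Kcnk5, which was not called. Capitals mark CpG dinucleotides.
Kcnk2, chr13:103438643-103438892, minus strand: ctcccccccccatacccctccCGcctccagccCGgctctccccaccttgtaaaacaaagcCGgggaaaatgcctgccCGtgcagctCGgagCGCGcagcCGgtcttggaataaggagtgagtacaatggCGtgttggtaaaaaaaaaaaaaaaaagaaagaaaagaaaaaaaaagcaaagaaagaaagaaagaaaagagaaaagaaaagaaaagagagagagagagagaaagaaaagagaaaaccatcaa
Kcnk2, chr13:103494687-103494936, minus strand: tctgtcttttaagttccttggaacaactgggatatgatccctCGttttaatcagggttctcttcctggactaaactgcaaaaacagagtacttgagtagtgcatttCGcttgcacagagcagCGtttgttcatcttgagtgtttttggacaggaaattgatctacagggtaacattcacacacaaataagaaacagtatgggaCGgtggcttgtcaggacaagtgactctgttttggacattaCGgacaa
Kcnk5, chr15:4171375-4171624, plus strand: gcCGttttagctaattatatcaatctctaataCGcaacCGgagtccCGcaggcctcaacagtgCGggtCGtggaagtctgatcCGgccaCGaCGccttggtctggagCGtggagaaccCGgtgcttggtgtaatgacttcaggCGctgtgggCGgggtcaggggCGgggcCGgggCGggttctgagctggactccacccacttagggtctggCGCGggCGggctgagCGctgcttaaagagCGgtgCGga

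The Kcnk2 windows hold 9 and 5 CpG and the Kcnk5 window 22, against a median of 5 over all 33469 windows of this length. GGGCGG, the GC box, searched on both strands, occurs 4 times in the Kcnk5 window and in neither Kcnk2 window, and 30.5% of all windows hold it. TATAAA, searched the same way, occurs in none of the 3 and in 12.9% of all windows. These letters describe the windows and were not tied to the measured levels.

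Kcnk5 (ENSRNOG00000047005) encodes TASK-2, which despite its name is opened by alkaline conditions and is known from kidney and brainstem chemoreceptor neurons. It had 4.38 and 3.82 CPM in neonates and 4.82 and 5.35 CPM in adults. These levels did not overlap by library size, but after TMM scaling (4.86 and 4.08 CPM against 4.46 and 4.88 CPM) they did. The log2 fold change was -0.062 (SE 0.25, adjusted p = 0.84 by edgeR's quasi-likelihood test), and it turned slightly positive without neonate replicate 2 (0.067) or without adult replicate 2 (0.0050).

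Kcnk1 (ENSRNOG00000019937), the TWIK-1 channel that is largely held inside cells, had 1.11 and 2.0 CPM in neonates and 1.40 and 1.93 CPM in adults. Both ages spanned nearly the same range, and the log2 fold change of 0.14 (SE 0.40, adjusted p = 0.77 by edgeR's quasi-likelihood test) changed sign when scaled to library size alone and when neonate replicate 2 or adult replicate 1 was left out. Kcnk6 (TWIK-2) was listed at 0 counts in all 4 libraries. That allows up to 0.0760 to 0.0827 CPM a library, if reads of Kcnk6 were assigned to this entry. On the GRCr8 gene table, Kcnk6 and Kcnk2 each overlap another protein-coding gene and Kcnk3, Kcnk4, Kcnk5, Kcnk10, Kcnk12 and Kcnk13 a long noncoding RNA, while Kcnk9 and Kcnk1 overlap no annotated gene. Whether reads were counted by strand is not given in the sources used here, so reads of overlapping genes may be mixed.

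Kcnk13 encodes THIK-1, the background channel known from microglia, and Kcnk12 encodes THIK-2, which gives little current on its own. Kcnk13 had 17 counts in each neonatal library and 29 and 18 in the adult libraries. In CPM the ages were apart by little (0.431 and 0.442 against 0.768 and 0.496), and after TMM scaling they overlapped. The fit without a filter gave a log2 fold change of -0.32 (SE 0.65, adjusted p = 0.72 in edgeR). Markers of macrophages, relatives of microglia, were lower in neonates in 7 of 9 cases and higher in 1 by edgeR's test. Of all genes tested, 31.1% were lower and 31.2% higher. The summed level of these markers was 99.8 to 115 CPM in neonates and 199 to 205 CPM in adults. Kcnk12 had 12 and 0 counts in neonates and 8 and 3 in adults, and its spread between replicates was as wide as its range over ages.

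Of the 10 genes, 5 passed the filter (Kcnk1, Kcnk2, Kcnk3, Kcnk5 and Kcnk9), and the other 5 stayed below it or at 0. At an adjusted p under 0.05 by edgeR's quasi-likelihood test, 2 of the 5 were higher in neonates (Kcnk2 and Kcnk3), where 31.2% of all genes tested were, and 1 was lower (Kcnk9), where 31.1% of all genes were. Past a 2-fold change as well, Kcnk2 was the 1 gene higher in neonates, against 7.68% of all genes, and Kcnk9 the 1 gene lower, against 13.2%. Numbers this small do not set the group apart from the other genes. Summed over the 10 genes, the level was 210.5 and 228 CPM in neonates and 258 and 222 CPM in adults. Kcnk3 took 93.0% and 93.2% of those reads in neonates and 82.4% and 82.1% in adults, and Kcnk2 took 2.26% and 2.45% against 1.29% and 1.03%. Kcnk9 went from 1.32% and 1.02% to 13.1% and 13.0%.

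**Figure D4:**
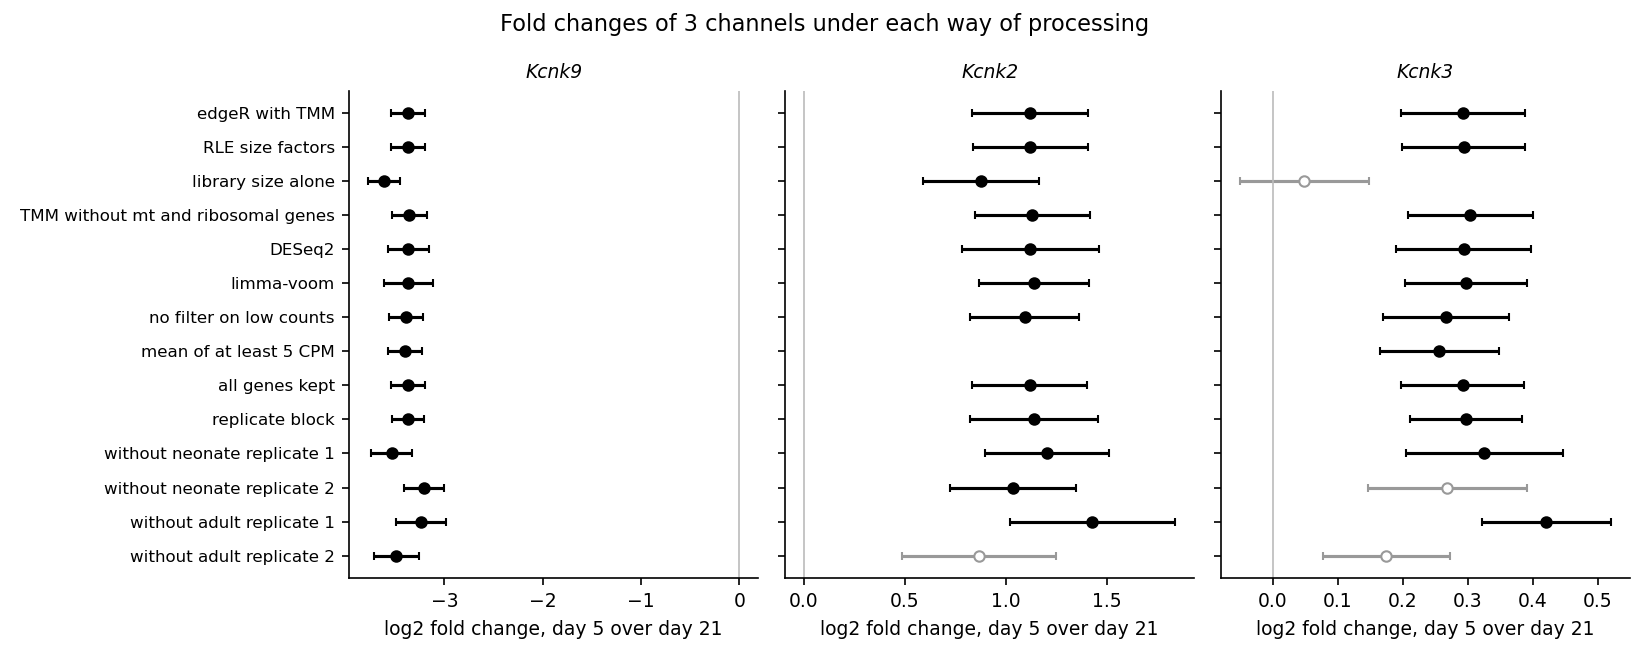
Log2 fold change of day 5 over day 21 with its standard error (x axis, own scale per gene) for Kcnk9, Kcnk2 and Kcnk3 under each way of processing, filled where the adjusted p was under 0.05 and open otherwise. Kcnk9 stayed between -3.61 and -3.21 and past the threshold in every fit, Kcnk2 was open without adult replicate 2, and Kcnk3 was open for library size alone and without neonate or adult replicate 2.

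Proteins that move, tether or gate K2P channels were followed as a list of 23 genes, of which 22 were tested and Akap5 fell below the filter. By edgeR's quasi-likelihood test 7 were higher and 5 lower in neonates and 10 were not called, where 31.2% of all genes tested were higher and 31.1% lower. The median of the 22 log2 fold changes was 0.15 against -0.0029 over all genes tested. Scaled to library size alone, 4 were higher and 8 lower, and the median was -0.095. Genes past 2-fold were S100a10 in one direction and Gnaq, Gna11 and Senp1 in the other.

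Gnaq and Gna11 encode the Gq and G11 alpha subunits, through which receptors for transmitters close TASK channels. Gnaq had 6.94 and 8.36 CPM in neonates and 24.6 and 29.1 CPM in adults (log2 fold change -1.57, SE 0.14, adjusted p = 3.3e-05 by edgeR's test). Gna11 had 7.78 and 8.57 CPM against 21.3 and 19.6 CPM (log2 fold change -1.08, SE 0.14, adjusted p = 0.00020 by edgeR's test). Neither gene overlapped between ages. Of the phospholipases that act after these subunits, Plcb4 was lower in neonates (log2 fold change -0.73, adjusted p = 0.00011 in edgeR), as was Plcb1 (-0.30, adjusted p = 0.024 in edgeR), and Plcb3 was at 0.12 and was not called.

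S100a10, a calcium-binding protein family member that partners annexin A2 and binds TASK-1, had 183 and 215 CPM in neonates and 108 and 115 CPM in adults (log2 fold change 1.08, SE 0.086, adjusted p = 1.6e-05 by edgeR's test). Senp1, which removes SUMO from proteins, went the other way with 5.07 and 4.36 CPM against 12.5 and 13.3 CPM. S100a10, Senp1, Plcb4 and Sfn carry fractional counts, a sign of reads divided over entries, and Senp1 has a further entry with fewer reads. Of the 14-3-3 proteins, which help TASK channels leave the endoplasmic reticulum, Ywhah and Sfn were higher in neonates, at log2 fold changes of 0.65 and 0.91, and the other 5 were not called.

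Markers of other cell types were followed in the same way, and the part of those cells in the channel results was not tested. The shares to set beside their counts are the 31.2% of all genes tested that were higher and the 31.1% that were lower in neonates. By edgeR's test, of sustentacular and Schwann cell markers 3 of 9 were higher and 3 lower in neonates, and the summed level was 1192 and 2302 CPM in neonates and 2232 and 2425 CPM in adults. Endothelial markers (8 tested, Cdh5 with the highest CPM) had 2 higher and 3 lower. Both lists lay near those shares, and each had 1 higher and 4 lower when scaled to library size alone. Smooth muscle and pericyte markers (9 tested, Pdgfrb with the highest CPM) had 1 higher and 6 lower, and fibroblast markers (6 tested, Col3a1 with the highest CPM) had 0 higher and 4 lower. Adipocyte markers (4 tested, Plin1 with the highest CPM) had 3 lower, and skeletal muscle markers (4 tested, Myh3 with the highest CPM) had 1 lower, with Myh8 at 0. Thyroid markers were near 0, at 0.887 to 2.33 CPM in sum. The 3 parathyroid markers summed to 1616 and 198 CPM in the neonatal libraries and to 0.0265 and 0.0551 CPM in the adult libraries.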

How the data were processed

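RNA of carotid bodies pooled from several rats was sequenced in 2 libraries per age, as grouped by the sample labels. The authors deposited 1 table of estimated counts per gene. The submitters' processing notes name Salmon 1.5.2 and the rat build Rnor_6.0, and the methods of the paper name STAR for alignment. A transcript counter such as Salmon divides reads shared between transcripts, so 5.02% to 6.19% of genes had fractional values per library. Counts were rounded to whole numbers, and CPM was the count over the library total.

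Genes annotated as other than protein-coding by RefSeq GRCr8 symbol were removed (670), and 13634 without an annotated type were kept. Of the rest, 13838 reached 1 CPM in 2 or more libraries and entered the test. The test was edgeR 4.0.16 (quasi-likelihood, TMM) in R 4.3.3, with the 2 ages as groups and no other term, and Benjamini-Hochberg adjustment across these genes. Calls were made at an adjusted p under 0.05, and also past 2-fold where stated. The step was tested on simulated data. Standard errors are the log2 fold change divided by the square root of F. Shares have exact (Clopper-Pearson) 95% binomial intervals for counting error only, from scipy 1.17.1. Replicates of an age differed beyond counting noise, with a chi-square per degree of freedom of 32.6 between the neonatal and 15.4 between the adult libraries, and each was counted as its own sample.

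The genes named are all Kcnk genes, partners and regulators called past 2-fold, the gene of highest CPM in each marker list and its markers at or near 0, and the 5 genes nearest to Kcnk3. Where a symbol has several entries, the one with more reads was used. Th, Gata3, Chga, the phospholipases and 14-3-3 members were named after their values were seen. A few genes that this rule covers are not reported here. The members and gene lists were chosen with earlier results of these data known. Alternatives were DESeq2 1.42.0, limma 3.58.1 (voom), library-size scaling, TMM without mitochondrial and ribosomal protein genes, other filters, a replicate block and leaving out each library.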

Additional observations from a re-analysis of the deposited data

How the results depend on the processing

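Kcnk9 kept its direction and its call in all 13 alternatives, Kcnk2 its call in 11 of 12 and Kcnk3 in 10 of 13. With library size alone, called genes went from 4324 higher and 4298 lower in neonates to 2584 and 5999, K2P genes higher from 2 to 1, and partners from 7 higher and 5 lower to 4 and 8. Under the same scaling the log2 fold change of Kcnk1 turned to -0.097. Past 2-fold, 1063 genes were higher and 1821 lower, with 1 K2P gene higher and 1 lower and 1 partner higher and 3 lower. Of the 38 other potassium channel genes tested, 2 were higher and 9 lower past 2-fold, against 7.68% and 13.2% of all genes. With a mean of at least 5 CPM, which dropped Kcnk2, 1 of 2 K2P genes tested was higher. Of the other potassium channel genes, 6 of 15 tested were lower in place of 12 of 38. Leaving out 1 library gave 0 to 2 K2P genes higher (0 without adult replicate 2, 1 without neonate replicate 2), 5 to 8 partners higher and 3 to 6 other potassium channel genes higher (3 without adult replicate 2). It moved Kcnk1 over -0.30 to 0.49 and Kcnk5 over -0.19 to 0.067, with signs reversed for Kcnk1 (-0.30 without neonate replicate 2 and -0.060 without adult replicate 1) and Kcnk5 (0.067 without neonate replicate 2 and 0.0050 without adult replicate 2). The cause was not tested. Taking all 14 Kcnk genes as the denominator, Kcnk3 held 92.7% in neonates and 81.6% in adults, and Kcnk9 12.9% in adults. With the replicate block, 4553 genes were higher and 4559 lower, and Kcnk9 was at -3.37, Kcnk2 at 1.14 and Kcnk3 at 0.30, with no K2P call changed. Deviations of same-numbered libraries correlated at -0.016 over genes, so the numbers are not shown to pair the libraries. Depth limits Kcnk4, Kcnk12 and Kcnk13, which had 0 to 29 counts a library. Kcnk6 had 0 counts in all 4 libraries and overlaps another protein-coding gene, and the part of depth or read assignment in this was not tested.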

Other observations

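Of the other Kcnk genes, Kcnk7 had 1.24 and 0.597 CPM in neonates and 1.80 and 1.74 CPM in adults (log2 fold change -0.69, SE 0.44, adjusted p = 0.20 by edgeR's quasi-likelihood test). Without neonate replicate 1 it was -1.34 with an adjusted p of 0.025 in edgeR. Kcnk15 and Kcnk16 had 0 to 8 counts a library, and Kcnk18 had 0 in all 4.

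Of 61 alpha subunits of other potassium channels, 38 were tested. Neonates were higher for 5 and lower for 12 by edgeR's test (median log2 fold change -0.19), against 31.2% and 31.1% of all genes tested.

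Patterns most like that of Kcnk9 were sought, after its values were seen, as the smallest Euclidean distance of log2 CPM (TMM, centred per gene) over the 4 libraries. Among the nearest genes were Ntn1 (netrin-1, an axon guidance cue) at a distance of 0.274, Slc8a1 (a sodium-calcium exchanger) at 0.355 and Klf9 (a transcription factor induced by glucocorticoid and thyroid hormone) at 0.368, and 13 genes lay within 0.5. Klf9 had 8.03 and 8.78 CPM in neonates and 90.1 and 90.5 CPM in adults. Around Kcnk3, whose levels varied little, 5580 genes lay within 0.5, the nearest being Sf3b4 at 0.0115, LOC100910528 at 0.0207, Ddx25 at 0.0233, Rbm42 at 0.0307 and Mlf2 at 0.0318. These distances rest on 4 libraries of 2 ages.

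The 4 protein-coding genes flanking Kcnk9 on GRCr8 had values nearer to 0. The log2 fold changes were -0.67 for Trappc9 (SE 0.13, adjusted p = 0.0023 in edgeR), -0.76 for Fam135b (adjusted p = 0.11 in edgeR), -0.14 for Col22a1 (adjusted p = 0.45 in edgeR) and 0.18 for Chrac1 (adjusted p = 0.16 in edgeR). They were chosen by position after the data were seen.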
